A study of Homo sapiens with 6 samples.

Results

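The genes described are 10 regulators: FOS, FOSB, FOSL1 and FOSL2 of the Fos family, JUN, JUNB and JUND of the Jun family, ATF3, EGR1 and IER3. They were taken by gene symbol, each through its brightest probe set on average over the arrays. All 10 were measured, among 18417 genes in all. Expression had been measured on 6 microarrays, 2 for each of 3 groups, in Du145, an established human prostate carcinoma line. Control cells have no treatment in the labels. The shTSC2 cells had been infected with a lentivirus that lowers expression of TSC2 by a short hairpin RNA. The third group, called shTSC2-adapted here, is described by the labels only as adapted from the knockdown, with the same viral treatment. Cells of all 3 groups were cultured at 1% oxygen in serum-containing, high-glucose medium and had 24 h of hypoxia before RNA was taken, so hypoxia is shared by the controls. Nothing in the labels describes the adaptation, any virus given to control cells, the number of hairpins or clones, or the cultures behind the arrays of a group. Spread between arrays, on which all p-values rest, may thus be technical only, and 2 arrays a group limit the precision.

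AP-1 is a dimer of basic leucine zipper proteins. Jun proteins pair with each other or with Fos proteins, and Fos proteins need a Jun partner. FOS, FOSB, JUNB, EGR1 and IER3 are classical immediate early genes, transcribed within minutes of a growth factor or stress signal from MAP kinases through factors already present, and their transcripts are short-lived. ATF3 is a stress-induced relative of these factors, EGR1 is a zinc finger factor, and IER3 is an early response protein that acts on cell survival. TSC2 restrains the growth kinase mTORC1, and growth factor signals act on it through AKT and ERK.

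The promoters of these genes are shown for the short site sequences they hold. Whether such sites had a part in the differences between groups was not tested. Of the 10 genes, 8 had an entry in RefSeq's promoter table (GRCh38.p14). The windows of JUNB and ATF3, whose levels separated shTSC2 from the other groups as those of FOS and FOSB did, are not printed. The 250 bases before the start of FOS and FOSB, whose levels separated shTSC2 from the other groups, of JUN and EGR1, which were also higher on both shTSC2-adapted arrays than on the controls, and of JUND, which was not raised in shTSC2, read 5′ to 3′ as follows. Capitals mark matches, on either strand, to the AP-1 site TGACTCA, the cyclic AMP response element TGACGTCA, its variant TGACATCA from the JUN gene, the shorter form TGACGT, the EGR site GCGNGGGCG, the TATA box as TATAAA, and the CArG box, the core of the serum response element.
FOS, chr14:75278578-75278827, plus strand: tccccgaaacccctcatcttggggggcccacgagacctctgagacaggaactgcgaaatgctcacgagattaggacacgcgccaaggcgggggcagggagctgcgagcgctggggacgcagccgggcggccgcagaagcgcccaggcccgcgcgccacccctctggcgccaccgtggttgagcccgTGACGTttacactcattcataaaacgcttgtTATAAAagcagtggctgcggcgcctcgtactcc
FOSB, chr19:45467746-45467995, plus strand: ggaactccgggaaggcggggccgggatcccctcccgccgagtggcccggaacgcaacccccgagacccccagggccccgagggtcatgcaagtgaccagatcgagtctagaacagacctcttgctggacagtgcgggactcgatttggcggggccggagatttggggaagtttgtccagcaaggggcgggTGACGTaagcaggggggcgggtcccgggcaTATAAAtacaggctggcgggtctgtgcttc
JUN, chr1:58784048-58784297, minus strand: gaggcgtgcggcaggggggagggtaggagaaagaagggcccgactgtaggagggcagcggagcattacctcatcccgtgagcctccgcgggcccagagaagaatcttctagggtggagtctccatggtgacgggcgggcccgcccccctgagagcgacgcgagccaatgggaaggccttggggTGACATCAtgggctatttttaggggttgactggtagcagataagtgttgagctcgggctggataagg
EGR1, chr5:138465229-138465478, plus strand: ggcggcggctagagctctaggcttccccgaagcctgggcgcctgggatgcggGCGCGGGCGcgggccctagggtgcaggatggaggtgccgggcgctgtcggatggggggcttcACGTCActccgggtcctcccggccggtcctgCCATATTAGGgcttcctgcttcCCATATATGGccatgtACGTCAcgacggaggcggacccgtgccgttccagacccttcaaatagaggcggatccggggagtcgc
JUND, chr19:18281623-18281872, minus strand: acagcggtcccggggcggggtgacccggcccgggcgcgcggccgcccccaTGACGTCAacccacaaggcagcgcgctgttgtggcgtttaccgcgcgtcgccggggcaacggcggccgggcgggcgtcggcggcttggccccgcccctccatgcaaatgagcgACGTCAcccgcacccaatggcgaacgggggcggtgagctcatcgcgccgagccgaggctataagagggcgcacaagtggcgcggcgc

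FOS and FOSB had the same arrangement in this window: a TGACGT, the 5′ part of a cyclic AMP response element, that began 64 and 60 bases before the start, and a TATAAA that began 33 and 30 bases before it. Among 35116 promoters of the table, 7.1% hold TGACGT and 10.7% hold TATAAA in the same window. EGR1 held 2 CArG boxes, beginning 105 and 83 bases before the start, against 1.16% of promoters with at least 1. It also held ACGTCA, which is TGACGT read on the other strand, at 136 and 67 bases, and a GCGCGGGCG at 198 bases, a form of GCGNGGGCG that 8.41% of promoters hold. JUN held TGACATCA, found in 2.37% of promoters, 67 bases before the start. Of the 2 ATF3 starts in the table, the first held the same TGACATCA 123 bases before it, and the other a TATAAA 230 bases before it. Whether the cells used either ATF3 start was not measured. JUND held a complete TGACGTCA (1.65% of promoters) 200 bases before the start, which contains TGACGT on both strands, and a further ACGTCA at 87 bases. FOSL2 held TGACGT at 66 bases and JUNB TATAAA at 31 bases. TGACTCA (4.2% of promoters) was not found in any of these windows. A match is a stretch of letters, and binding was not measured. Bases further upstream or after the start were not searched, so a gene without a match here, such as FOS for the CArG box, may hold the site elsewhere.

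TSC2 stood at a log2 intensity of 7.52 and 7.59 in control and at 6.48 to 6.67 on the 4 knockdown arrays. The epithelial keratins KRT8 and KRT18 were at 11.22 to 11.50 on every array. EPCAM (-1.29, adjusted p = 0.0271) and KRT19 (-1.38, adjusted p = 0.00664) fell in shTSC2 by limma, and both were higher in shTSC2-adapted than in shTSC2 (1.65 and 1.55, adjusted p = 0.0173 and 0.00772). Of the 6 epithelial markers 4 were higher in that comparison: also the adhesion protein CDH1 (1.54, adjusted p = 0.00756) and the tight junction protein CLDN7 (0.69, 0.0138), whose shTSC2-adapted arrays lay above both controls as well (1.40 and 0.76, adjusted p = 0.0680 for each). Of 17 measured markers of the androgen receptor axis, fibroblasts, leukocytes and endothelium, 0 passed in any of the 3 comparisons, and only COL1A1 (6.63 to 6.88) was above the median gene level of 6.49. All values below are log2 intensities, a difference is 1 group mean minus another (n = 2 each) given with its standard error (SE), and limma, fitted to all 6 arrays, gave two-sided p-values that were adjusted over 18417 genes and called under 0.05.

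The first comparison asked how these genes differ between shTSC2 and control cells in hypoxia. FOS, FOSB, JUN, JUNB and ATF3 rose, by 1.95-fold to 4.98-fold. EGR1, IER3, FOSL1, FOSL2 and JUND did not pass. Thus 5 of 10 rose and 0 fell, where 6.87% of all genes rose and 13.9% fell. Both shTSC2 arrays exceeded both controls for 8 of the 10, where 32.4% of all genes were higher without overlap, and FOSL2 was lower without overlap, where 29.6% were. The median difference of the 10 genes was 0.95, against 0.03 over all genes. The split over all genes depends on the scale of the arrays: 1266 rose and 2567 fell, against 869 and 2962 with each array centred on its median over all probe sets and 1802 and 2257 with centring on the median of the 18417 genes. The 5 rises passed under each of these scalings. Without control 1 or control 2, which leaves a single control array, only FOSB and ATF3 kept their calls, and fewer of all genes passed too. FOSB then stood at 1.61 and 1.42, and ATF3 at 2.04 and 1.99. In such bulk samples, fewer cells that express a gene and less RNA per cell cannot be told apart.

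**Figure D1:**
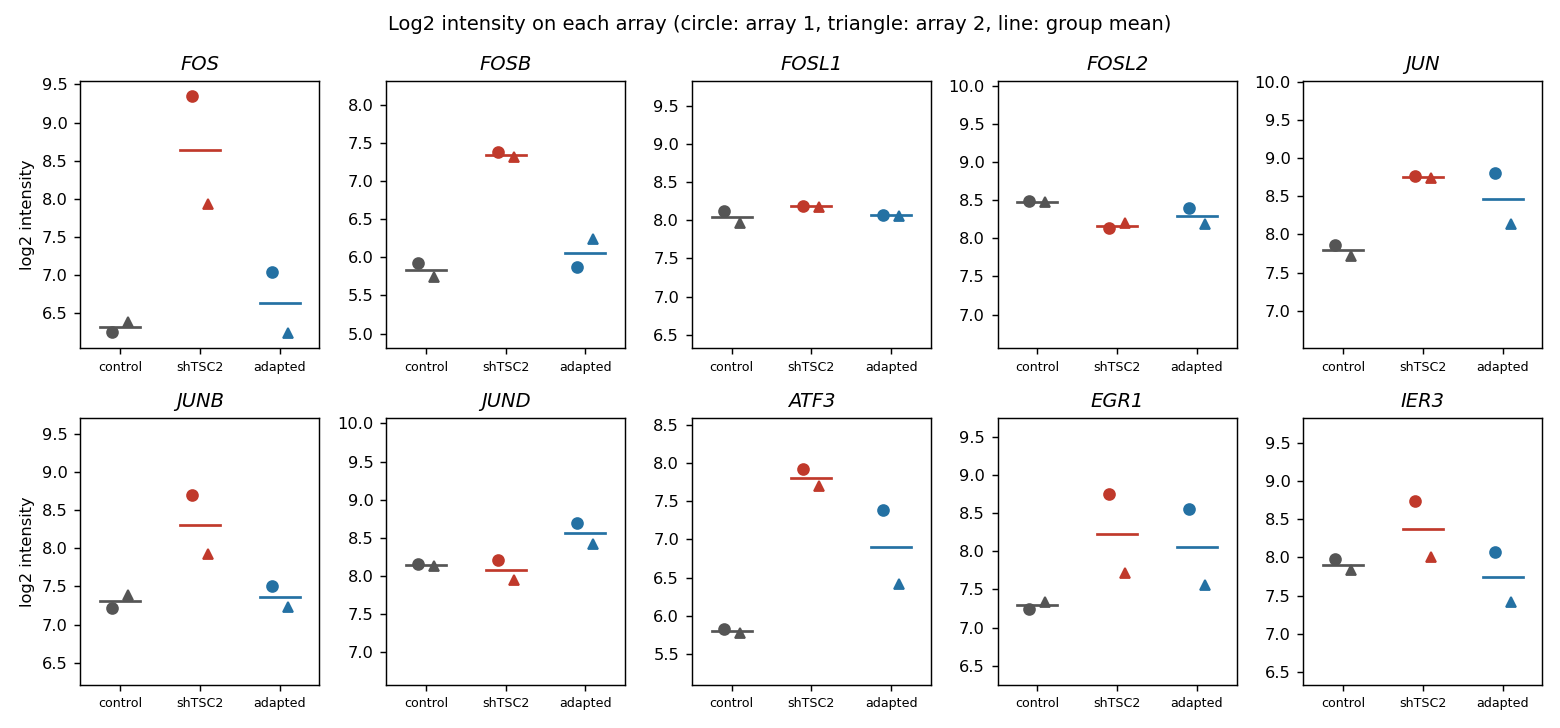
Log2 intensity of each of the 10 genes (y axis; each panel has its own range) in control, shTSC2 and shTSC2-adapted cells (x axis), with circles for array 1, triangles for array 2 and a line for the group mean. FOS, FOSB and JUNB are high on both shTSC2 arrays only, and JUN, ATF3 and EGR1 are above control on all 4 knockdown arrays. FOS, JUNB, EGR1 and IER3 are higher on array 1 than on array 2 in both knockdown groups.

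FOS, the founding Fos protein, was at 6.26 and 6.39 in control, at 9.35 and 7.93 in shTSC2, and at 7.04 and 6.24 in shTSC2-adapted. Both shTSC2 arrays lay above every other array, and the shTSC2-adapted arrays overlapped the controls. The rise in shTSC2 was 2.32 (SE 0.43, 95% interval 1.30 to 3.33, adjusted p = 0.00948). The arrays of shTSC2 were 1.42 apart, a gap reached by only 0.0814% of all genes in that group, so the size of the rise is uncertain: it was 3.03 without shTSC2 2 and 1.61 without shTSC2 1. The call was lost without control 1 (2.25, adjusted p = 0.0761) or control 2 (2.38, 0.0710).

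FOSB, a Fos protein that also occurs as a shorter isoform lacking part of its activation region, was at 5.93 and 5.74 in control, at 7.38 and 7.31 in shTSC2, and at 5.87 and 6.24 in shTSC2-adapted. Here the shTSC2 arrays were close together and well above the other 4. FOSB rose by 1.51 (SE 0.14, 95% interval 1.18 to 1.84, adjusted p = 0.000771), and passed in all 16 alternative analyses that tested it (adjusted p between 0.000156 and 0.0187). The isoforms were not distinguished here.

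The other Fos proteins, which lack the strong activation regions of FOS and FOSB, did not follow. FOSL1 was at 8.12 and 7.96 in control, 8.19 and 8.18 in shTSC2, and 8.07 and 8.06 in shTSC2-adapted. Its difference in shTSC2 was 0.15 (95% interval -0.08 to 0.37, adjusted p = 0.350), so a rise as large as that of FOSB lies outside its interval. FOSL2 was at 8.49 and 8.47 in control and lower, at 8.13 and 8.20, in shTSC2, with 8.39 and 8.18 in shTSC2-adapted. The FOSL2 difference was -0.32 (SE 0.11, 95% interval -0.56 to -0.07) and did not pass over all genes (adjusted p = 0.0764; 0.0540 to 0.298 over 17 alternatives).

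JUN, the main partner of Fos proteins, was at 7.86 and 7.72 in control, at 8.76 and 8.74 in shTSC2, and at 8.80 and 8.14 in shTSC2-adapted. All 4 knockdown arrays exceeded both controls. JUN rose in shTSC2 by 0.96 (SE 0.20, 95% interval 0.50 to 1.42, adjusted p = 0.0134), and the call was lost without control 1 (1.03, adjusted p = 0.0737) or control 2 (0.89, 0.112). JUNB, a Jun protein that activates transcription more weakly and can oppose JUN, was at 7.22 and 7.39 in control, at 8.70 and 7.92 in shTSC2, and at 7.50 and 7.23 in shTSC2-adapted. Its rise was 1.01 (SE 0.24, 95% interval 0.45 to 1.56, adjusted p = 0.0226), with 1.40 without shTSC2 2 and 0.62 without shTSC2 1. That call too was lost without control 1 (0.92, adjusted p = 0.149) or control 2 (1.09, 0.106).

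JUND, the Jun protein that is expressed most steadily in resting cells, differed from its relatives. JUND stood at 8.16 and 8.13 in control, 8.21 and 7.95 in shTSC2, and 8.70 and 8.42 in shTSC2-adapted. The shTSC2 arrays spanned the controls (-0.07, 95% interval -0.38 to 0.25, adjusted p = 0.777), while both shTSC2-adapted arrays were the highest of the 6.

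ATF3 was at 5.82 and 5.77 in control, at 7.92 and 7.70 in shTSC2, and at 7.38 and 6.42 in shTSC2-adapted. The groups did not overlap: the shTSC2 arrays were highest, the shTSC2-adapted arrays intermediate and the controls lowest. ATF3 rose in shTSC2 by 2.02 (SE 0.27, 95% interval 1.38 to 2.65, adjusted p = 0.00258), and passed in all 17 alternatives (adjusted p between 0.000178 and 0.0355). EGR1 was at 7.25 and 7.33 in control, 8.75 and 7.71 in shTSC2, and 8.55 and 7.56 in shTSC2-adapted. All 4 knockdown arrays exceeded the controls, but array 1 of each knockdown group was about 1 unit above array 2. With that spread the EGR1 difference of 0.94 (SE 0.38, 95% interval 0.04 to 1.84) did not pass (adjusted p = 0.134), and it did pass without shTSC2 2 (1.46, adjusted p = 0.0299), with 0.42 without shTSC2 1. With a block on array number EGR1 did not pass by limma (adjusted p = 0.053). It passed when the control numbers were crossed in that block (0.0232), a setting chosen after seeing the data. IER3 was at 7.98 and 7.83 in control, 8.74 and 8.01 in shTSC2, and 8.07 and 7.42 in shTSC2-adapted. Its difference in shTSC2 was 0.47 (SE 0.27, adjusted p = 0.276), with 0.11 without shTSC2 1 and 0.84 (0.0585) without shTSC2 2. The other 2 IER3 probe sets held identical values to each other and gave 0.44 (adjusted p = 0.240 with every probe set tested by limma), so they are no separate check.

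The second comparison set shTSC2-adapted cells against control. No member passed (lowest adjusted p = 0.146, for ATF3), where 0.261% of all genes did (0.0543% higher and 0.206% lower), and the median difference of the 10 genes was 0.27 against -0.01 over all genes. By unadjusted p under 0.05, 3 of the 10 differed by limma, all higher, where 12.6% of all genes differed and 5.33% were higher: ATF3 (1.11, 95% interval 0.47 to 1.74), JUN (0.68, 0.22 to 1.14) and JUND (0.42, 0.10 to 0.73). Both shTSC2-adapted arrays were above both controls for 4 genes (ATF3, JUN, JUND and EGR1), where 21.8% of all genes had arrays that were higher without overlap. FOSL2 was the only one lower without overlap, where 24.1% of all genes were. ATF3 passed with array weights (adjusted p = 0.0478). For FOS (0.32, 95% interval -0.70 to 1.33), FOSB (0.22, -0.11 to 0.55) and JUNB (0.06, -0.49 to 0.61) the intervals leave out a rise as large as the one estimated in shTSC2, and that of FOS is the widest of the 3. EGR1 stood at 0.77 (adjusted p = 0.489) and IER3 at -0.16 (0.894).

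The third comparison tested directly whether the knockdown states differ. It uses the same shTSC2 arrays as the first, so the 2 are not independent. In shTSC2-adapted cells FOS was lower than in shTSC2 by 2.0 on the log2 scale (-2.0, SE 0.43, adjusted p = 0.0259), FOSB by 1.29 (-1.29, SE 0.14, adjusted p = 0.00291) and JUNB by 0.95 (-0.95, SE 0.24, adjusted p = 0.0409). These 3 of 10 were lower and 0 were higher, where 12.5% of all genes passed (3.24% lower and 9.25% higher), and the median of the 10 was -0.46 against -0.03 over all genes. ATF3 (-0.91, adjusted p = 0.0724) and IER3 (-0.63, 0.188) did not pass, nor did JUND, which was higher by 0.48 (SE 0.13, adjusted p = 0.0579). Arrays did not overlap for 5 genes that were lower (FOS, FOSB, FOSL1, JUNB and ATF3), where 27.1% of all genes were, and for JUND, which was higher, where 25.0% were. JUN (-0.28, 95% interval -0.74 to 0.18) and EGR1 (-0.18, -1.07 to 0.72) did not pass either, and neither interval leaves out 0.

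**Figure D2:**
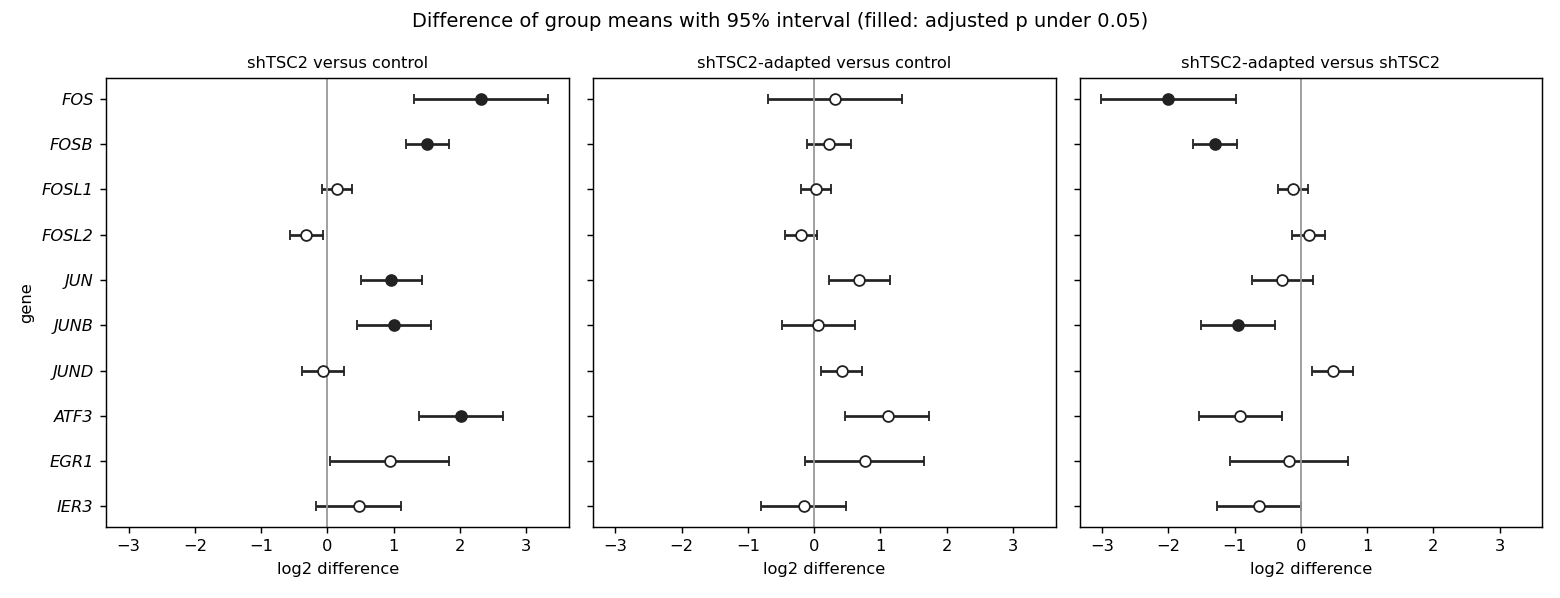
Difference of group means on the log2 scale (x axis) for the 10 genes (y axis) in the 3 comparisons, with 95% intervals from limma and filled points where the adjusted p is under 0.05. FOS, FOSB, JUN, JUNB and ATF3 are filled in shTSC2 against control, none in shTSC2-adapted against control, and FOS, FOSB and JUNB in shTSC2-adapted against shTSC2.

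FOSB alone of these 3 kept its call in all 16 alternatives. In this comparison, leaving out either control gives the same fit as only the 4 arrays compared, so these are a single check. The FOS call was lost in that fit (-2.0, adjusted p = 0.0676) and with an offset of 16 added before the log2 (-1.84, 0.0611). It was also lost without shTSC2-adapted 1 (-2.40) or shTSC2-adapted 2 (-1.60). The difference in FOS was -1.29 without shTSC2 1. JUNB was lost in 8 of 17 alternatives, a count that includes the fit to only the 4 arrays compared and its repeats (-0.95, adjusted p = 0.0917). It was also lost without shTSC2 1 (-0.56), without shTSC2-adapted 1 (-1.08) or 2 (-0.81), and with the gene length trend removed (-0.85, 0.0615). ATF3 passed without shTSC2-adapted 1 (-1.39, adjusted p = 0.0151), JUND without shTSC2 1 (0.61, 0.0371) and IER3 without shTSC2 2 (-1.0, 0.0439). The other way, ATF3 stood at -0.43 (0.129) without shTSC2-adapted 2, JUND at 0.34 (0.256) without shTSC2-adapted 1, and IER3 at -0.27 (0.535) without shTSC2 1. With array number as a block, ATF3 and JUND also passed (0.0420 and 0.0418), which makes 5 of the 10. With array centring on the median of all probe sets 5 passed as well, and 1 passed without either control or without shTSC2-adapted 2.

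Array 1 of each knockdown group carried more of these transcripts than array 2. Array 1 was the higher for 9 of 10 genes in shTSC2 and for 9 of 10 in shTSC2-adapted, against 7 of 10 in control. Over all genes array 1 was the higher for 52.1%, 44.7% and 48.7%. The median difference between the arrays of a group was 0.24 in shTSC2 and 0.47 in shTSC2-adapted for these genes, against 0.04 in control. Over all genes that median was 0.02, -0.02 and 0.00. EGR1 differed by 1.04 and 0.99 between the arrays of shTSC2 and of shTSC2-adapted, IER3 by 0.73 and 0.65, and FOS by 1.42 and 0.80, while 90% of all genes stayed within 0.43 and 0.34. JUN and ATF3 differed by 0.66 and 0.96 in shTSC2-adapted but by only 0.02 and 0.22 in shTSC2. FOSB went the other way in shTSC2-adapted (-0.37), and FOSL1 differed by 0.01 in both groups. Among 31 other immediate early genes, array 1 was the higher for 24 in shTSC2, for 15 in shTSC2-adapted and for 19 in control. What differed between the arrays is not in the labels and was not tested.

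**Figure D3:**
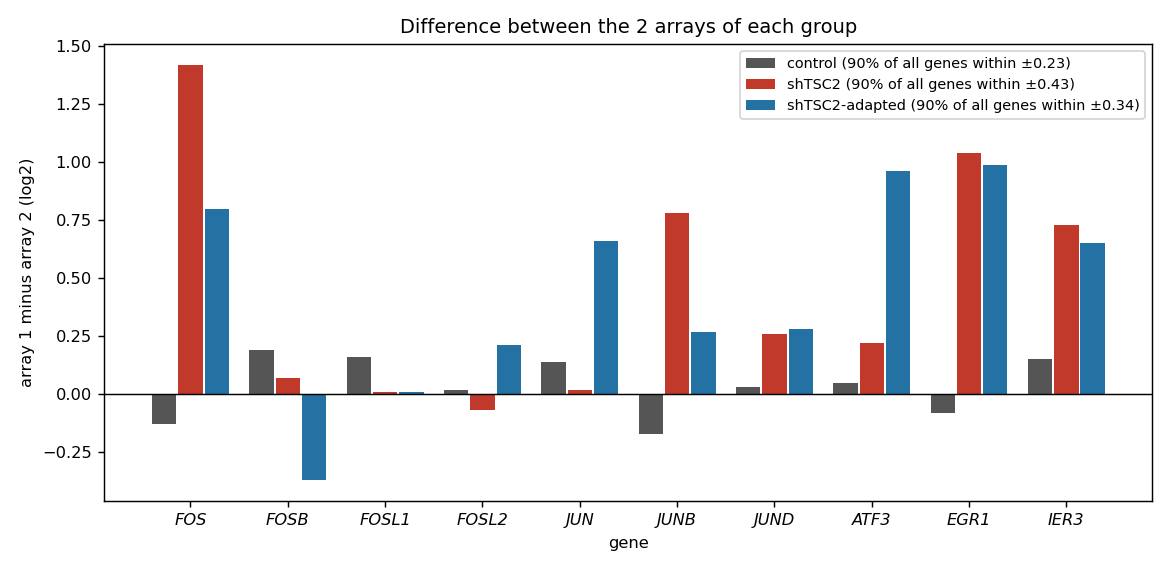
Log2 intensity on array 1 minus array 2 (y axis) for each of the 10 genes (x axis), with 1 bar for each group and the range that holds 90% of all genes given in the legend. EGR1, IER3 and FOS have tall bars in both knockdown groups, the control bars stay within 0.19, and FOSL1 has almost none in the knockdown groups.

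Other genes of the network were taken from 8 lists with 106 measured genes of 122. Of these lists the other immediate early genes, the list with the most genes, held the most calls. In shTSC2, 18 of its 31 measured genes rose and 1 fell, where 6.87% and 13.9% of all genes did, with a median of 0.40. With the gene length trend removed 12 rose and 3 fell, where 1197 and 2310 of 18386 genes did. Median centring gave 14 and 3, where 869 and 2962 of 18417 genes rose and fell. In shTSC2-adapted against shTSC2 16 were lower and 2 higher, where 3.24% and 9.25% of all genes were, with a median of -0.43. With the gene length trend removed 12 were lower and 2 higher there, where 516 and 1458 of 18386 genes were. In shTSC2-adapted against control 0 rose and CCN2, a matrix-associated growth regulator, fell, where 0.0543% and 0.206% of all genes did. PTGS2, the inducible prostaglandin synthase, had the largest rise (1.98, SE 0.12, adjusted p = 0.000256), although its control values of 4.20 and 4.26 were dim, under the first quartile of the probe sets (4.33). GADD45A, a stress-induced growth arrest protein, rose by 1.93 (SE 0.28, adjusted p = 0.00360). DUSP1, the phosphatase that switches off MAP kinases and is itself an immediate early gene, fell by 0.96 (-0.96, SE 0.15, adjusted p = 0.00480), and the call was lost without control 2 (adjusted p = 0.0544). CCN1, a matrix-associated protein, stood at -0.82 (adjusted p = 0.0578) and passed in 10 of 17 alternatives, and CCN2 stood at -0.40 (0.0608) and passed in 4. In shTSC2-adapted against shTSC2, PTGS2 (-1.92, adjusted p = 0.00106) and SGK1, a kinase related to AKT (-1.45, 0.00274), fell most, while DUSP1 (0.70, 0.0251) and CCN1 (1.02, 0.0398) were higher. The last 2 calls were lost without shTSC2 2 (0.56 and 0.71) and without shTSC2-adapted 1 (0.52 and 0.70). Both were also lost with only the 4 arrays compared (adjusted p = 0.0706 and 0.0889), a fit that leaving out either control repeats. Without control 1 or control 2 the list held 11 or 10 calls in shTSC2 in place of 19, and in shTSC2-adapted against shTSC2 it held 8 without shTSC2-adapted 1, 10 without shTSC2-adapted 2 and 11 without either control in place of 18. The CCN2 call against control (-1.0, adjusted p = 0.0349) was lost without either control (0.480 and 0.377) or either shTSC2-adapted array (0.224 and 0.123).

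**Figure D4:**
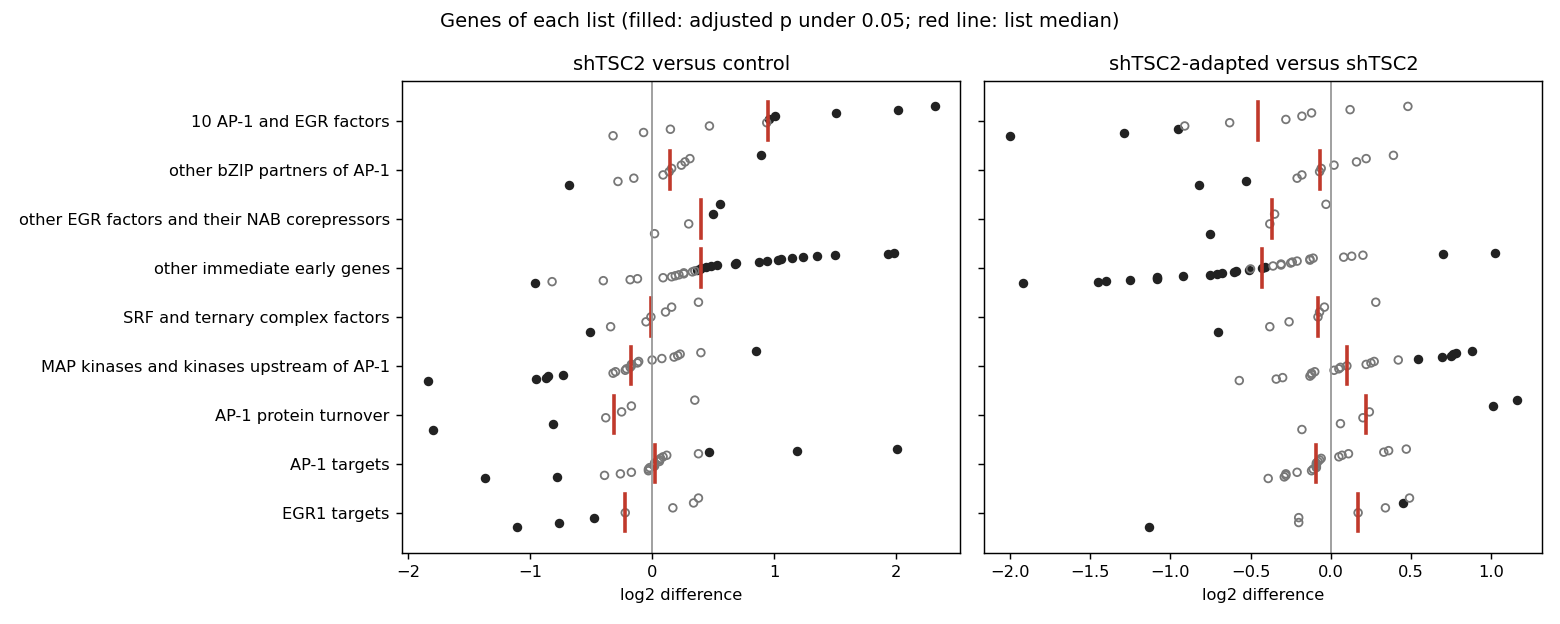
Log2 difference (x axis) of every measured gene of each list (y axis) in shTSC2 against control and in shTSC2-adapted against shTSC2, with filled points where the adjusted p is under 0.05 and a red line at the list median. The other immediate early genes lie mostly above 0 in the first panel and below 0 in the second, while the AP-1 targets centre near 0 in both.

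Of 4 measured EGR relatives and corepressors, EGR4 (0.50, adjusted p = 0.0194) and the corepressor NAB1, which binds EGR proteins and limits their activity (0.56, 0.00687), rose in shTSC2, and EGR3 stood at 0.02 and NAB2 at 0.30. Over all genes 6.87% rose and 13.9% fell in shTSC2. NAB1 was lower in shTSC2-adapted than in shTSC2 (-0.75, adjusted p = 0.00447). The rises of EGR4 and NAB1 were lost without control 1 (0.0874 and 0.0688) or control 2 (0.163 and 0.0710), and that of EGR4 also without shTSC2 2 (0.0595) and with median centring (0.0559). Of 10 other basic leucine zipper partners, MAFF, a small Maf protein without an activation region, rose (0.89, SE 0.10, adjusted p = 0.00147) and ATF2, a JUN partner at cyclic AMP response elements, fell (-0.68, adjusted p = 0.0189; lost without control 1, control 2 or shTSC2 2, at 0.0907, 0.146 and 0.0535). MAFF was back near control in shTSC2-adapted (6.80 and 6.82 against 6.70 and 6.79), at -0.82 from shTSC2 (adjusted p = 0.00395). The 1 rise and 1 fall in shTSC2 among these 10 partners are near the shares over all genes.

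Of 21 MAP kinases and related kinases upstream, 1 rose and 5 fell in shTSC2 (median -0.17), where 6.87% of all genes rose and 13.9% fell. In shTSC2-adapted against shTSC2, 6 were higher and 0 lower, where 9.25% and 3.24% of all genes were. Of the kinases that fell, MAPK8, MAP2K4, RPS6KA2 and RPS6KA5 span 123 to 453 kb in the reference, and MAPK13 spans 14 kb. Of protein-coding genes of 100 kb or more, 30.0% fell in shTSC2 and 21.7% were higher in shTSC2-adapted than in shTSC2. What part span had in these calls was not tested. RPS6KA5, a nuclear kinase that acts between MAP kinases and immediate early genes, fell by 1.84 (-1.84, SE 0.15, adjusted p = 0.000583), from 6.80 and 6.98 to 5.11 and 4.99, with 6.14 and 5.72 in shTSC2-adapted. MAP2K3, an activator of p38 kinases, rose by 0.85 (adjusted p = 0.00948; 0.0963 without control 2). Of 6 genes that act in the turnover of AP-1 proteins, DET1 (-1.80, SE 0.11, adjusted p = 0.000290) and COP1 (-0.81, SE 0.14, 0.00673), which belong to a ubiquitin ligase for JUN, fell in shTSC2, and both were higher in shTSC2-adapted than in shTSC2 (1.16 and 1.01, adjusted p = 0.00217 and 0.00550). DET1 spans 44.8 kb and COP1 262 kb. The COP1 fall was lost without control 1 (0.0699) or control 2 (0.0510). Of 7 measured genes of SRF and its partners, MRTFB, a coactivator of SRF, fell (-0.51, adjusted p = 0.01; lost without control 1 or 2, at 0.0616 and 0.109, and with the gene length trend removed, 0.0513), and SRF itself stood at 0.11 (0.572).

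Of 20 genes known as AP-1 targets, 3 rose and 2 fell in shTSC2, where 6.87% and 13.9% of all genes did, with a median of 0.02 against 0.03 over all genes, and 0 passed in shTSC2-adapted against shTSC2 by limma, with a lowest adjusted p of 0.105. The list holds dim genes: MMP3, MMP10, MMP13 and IL6 had control means of 3.62 to 4.29, under the first quartile of the probe sets (4.33). The list median includes these genes, and what part their low levels had in it was not tested. The chemokine CXCL8 (2.01, SE 0.53, adjusted p = 0.0353) and the uridine phosphorylase UPP1 (1.19, SE 0.22, 0.00838) rose, whereas the adhesion receptor CD44 (-1.37, SE 0.13, 0.000759) and the protease PLAU (-0.78, 0.0128) fell. The CXCL8 call was lost without control 1 (0.157), control 2 (0.176) or shTSC2 1 (0.122) and with an offset of 16 (0.0865), that of UPP1 without control 2 (0.0851), and that of PLAU without control 1 (0.104) or control 2 (0.0813). Of 7 EGR1 targets 3 fell and 0 rose in shTSC2 (median -0.22), where 13.9% and 6.87% of all genes did. The largest fall was that of the matrix protein FN1 (-1.11, SE 0.10, adjusted p = 0.000726). The falls of the growth factor genes TGFB1 (-0.76, adjusted p = 0.0180) and PDGFB (-0.48, 0.0196) were lost without control 1 (-0.71 and -0.41) or control 2 (-0.82 and -0.55). That of TGFB1 was also lost without shTSC2 2 (-0.59), which leaves FN1. In shTSC2-adapted against control, CD44 (-1.04, adjusted p = 0.0341) and FN1 (-0.94, 0.0265) were lower by limma, and no other gene of these 2 lists passed. Both calls were lost with the replicate block (0.0515 for each) and without either control or either shTSC2-adapted array.

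The 10 genes are mostly short, and differences in shTSC2 varied with gene span over the whole array. The part of span in the results was not tested beyond the values that follow. Their median span in the reference was 3.61 kb, against 27.3 kb over 16899 protein-coding genes, and 8 of the 10 span under 10 kb. Of 4233 protein-coding genes under 10 kb, 10.2% rose and 4.68% fell in shTSC2, while of 3076 genes of 100 kb or more 1.66% rose and 30.0% fell. With this trend removed, FOS stood at 2.20 (adjusted p = 0.0119), FOSB at 1.41 (0.000879), JUN at 0.85 (0.0250), JUNB at 0.90 (0.0345) and ATF3, the longest of the 10 at 55.4 kb, at 2.08 (0.00253), so all 5 still passed.

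**Figure D5:**
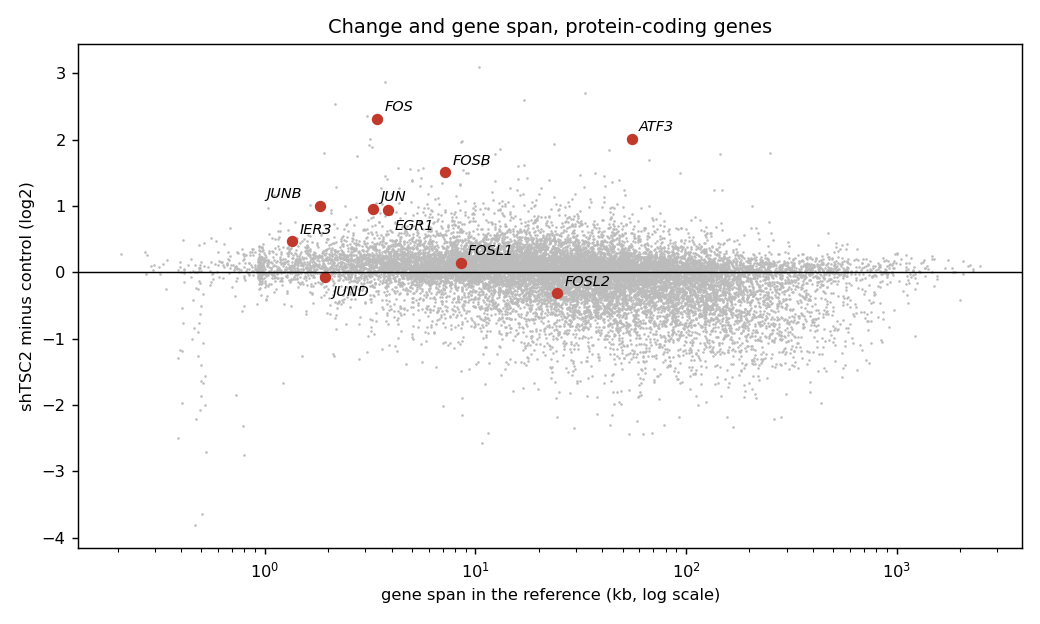
Difference between shTSC2 and control on the log2 scale (y axis) against gene span in the reference (x axis, kb, log scale) for 16899 protein-coding genes (grey), with the 10 genes in red. Long genes lie mostly below 0, and FOS, FOSB, ATF3, JUN and JUNB lie above most genes of their span.

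The genes whose values ran closest to a member over the 6 arrays were found by the root mean square difference of values centred on each gene's mean. Nearest to FOS were HCP5, a long non-coding RNA (0.24), the chemokine CXCL1 (0.29) and MIR22HG, the host transcript of a microRNA (0.33), whose shTSC2 arrays were also far apart (8.83 and 7.41, 8.37 and 7.42, and 8.57 and 7.42). The member nearest to FOS was ATF3 (0.58). Nearest to ATF3 were EREG, an EGF receptor ligand (0.11), GADD45A (0.19) and the collagen COL14A1 (0.29). EREG, for instance, was at 7.27 and 7.34 in control, 9.23 and 9.26 in shTSC2, and 8.67 and 7.82 in shTSC2-adapted. Nearest to EGR1 were the pseudogene SEPTIN7P13 (0.11), the small nuclear RNA gene RNU6ATAC (0.14) and HIP1, an endocytic adaptor (0.20). JUN was closest to OTUD3, a deubiquitinase (0.09), SNHG17, a host gene of small nucleolar RNAs (0.13), and DNAJC1, a chaperone of the endoplasmic reticulum (0.13). With 18417 genes and 6 arrays, close matches are common, and the values share the arrays.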

How the data were processed

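The deposited values were linear intensities of 33297 probe sets, which the authors had summarised with RMA, per the submitters' processing notes. For RMA, its version, probe definitions and build were not given in the sources used here. Median intensities were 58.1 to 63.1, and the deposited values are powers of 2 of log2 values with 2 decimals. Values were returned to log2, and 19460 probe sets with 1 gene symbol gave 18417 genes, with the probe set of highest mean for each gene. Probe sets with several symbols (1754) or none (12083) were left out. The model was fitted with limma 3.58.1 in R 4.3.3 to all 6 arrays, with Benjamini-Hochberg adjustment in each comparison, and was tested on simulated data. Named genes were the 10 members, TSC2, up to 2 of the largest rises and 2 of the largest falls that passed in each list and comparison, and the 3 genes closest in pattern to FOS, ATF3, EGR1 and JUN. Other genes (KRT8, KRT18, KRT19, EPCAM, CDH1, CLDN7, COL1A1, EGR3, NAB2 and SRF) were named after their values were seen. The members and lists were chosen with earlier results of these data known. Alternatives covered normalization, dim genes, an offset, probe sets, arrays used, array weights, gene length and a replicate block. Leaving out an array of the group not in a comparison gives the same fit there as only the 4 arrays compared. Every count of alternatives given here includes such repeats, which are no separate checks.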

Additional observations from a re-analysis of the deposited data

How the results depend on the processing

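Over 17 alternatives, 0 differences that passed on either side changed sign. Of 30 member differences, 7 changed sign under at least 1 alternative, none of them called, among them EGR1 in shTSC2-adapted against shTSC2 (-0.18, and 0.35 without shTSC2 1) and FOS in shTSC2-adapted against control (0.32, and -0.09 without shTSC2-adapted 1). Of 2469 values of 49 named genes under them, 2235 kept their side of the threshold, 155 lost a call and 79 gained one. The cause was not tested for any of the following. Leaving out 1 array at a time gave 1175 to 3895 genes called in shTSC2 against control in place of 3833, 2 to 6 of the 10 members in place of 5, and 10 to 18 other immediate early genes in place of 19. In shTSC2-adapted against control it gave 0 to 248 genes in place of 48, and 0 to 1 other immediate early genes in place of 1. In shTSC2-adapted against shTSC2 it gave 837 to 2600 genes in place of 2300, 1 to 4 members in place of 3, and 8 to 14 other immediate early genes in place of 18.

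The count of 48 genes in shTSC2-adapted against control was 94 with quantile normalization, 199 with median centring, 90 with centring over the 18417 genes, 121 with dim genes left out, 16 with the offset, 248 with only the 4 arrays compared and 437 with array weights. Array weights gave 1 member there in place of 0, and the offset gave 0 other immediate early genes. In shTSC2-adapted against shTSC2, only the 4 arrays compared gave 1113 genes, 1 member and 11 other immediate early genes. Of the members there, median centring gave 5 and the offset 1. With the replicate block, the count in shTSC2-adapted against control was 1 gene and 0 other immediate early genes, and 5 members passed in shTSC2-adapted against shTSC2. Same-numbered arrays deviated together with r = -0.102 (control and shTSC2), -0.187 (control and shTSC2-adapted) and 0.212 (shTSC2 and shTSC2-adapted), so the numbers were not shown to pair the arrays. Crossing the control numbers in the replicate block, chosen after seeing the data, gave 148 genes in shTSC2-adapted against control, 6 members in shTSC2 against control and 5 members in shTSC2-adapted against shTSC2. Centring over the 18417 genes was also added after seeing the data. With 3 residual degrees of freedom, differences of the size of the spread between arrays cannot be resolved, and FOS, FOSB and ATF3 lie below the median gene level in control.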
